A study of Saccharomyces cerevisiae with 16 samples.

Results

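The genes described here are those of the carnitine shuttle and of acetate handling in *Saccharomyces cerevisiae*: *CRC1*, *CAT2*, *YAT1*, *YAT2*, *ACH1*, *ATO2* and *ATO3*. They were chosen by symbol in the annotation of the array, and each was matched by 1 probe set, so that 7 probe sets of the 5498 that were tested are described, for 7 of 5449 genes. Their systematic names are YOR100C, YML042W, YAR035W, YER024W, YBL015W, YNR002C and YDR384C, in that order.

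Acetyl-CoA cannot cross the membranes of peroxisomes and mitochondria. In the carnitine shuttle its acetyl group is moved onto carnitine by an acetyltransferase, carried through the membrane as acetylcarnitine, and moved back onto coenzyme A inside the mitochondrion; *S. cerevisiae* does not make carnitine and takes it up from the medium. Genes of this kind are known for growth on acetate, ethanol and fatty acids, and many of them are kept low while glucose is plentiful.

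Affymetrix Yeast Genome 2.0 arrays were used, each giving an intensity per probe set, which is described here on the log2 scale. There were 8 conditions with 2 arrays each, labelled as biological replicates. Cultures of 5 ml were grown at 30°C with 2% glucose, to the early stationary phase by the labels and to the mid-exponential phase by the methods. The transcription factor genes *MSS11* and *FLO8*, regulators of flocculation and invasive growth, were altered. The first strain, an S288c derivative (BY4742), was labelled MATα *his3Δ1 leu2Δ0 lys2Δ0* with a *ura3* deletion, and carried either YEpLac195-*MSS11* (2μ-*MSS11*), a multicopy plasmid with *MSS11*, or the empty plasmid YEpLac195 (wild type). The second strain, Σ1278b, was likewise labelled MATα, with *ura3-52* and with *hisG* replacements at 3 loci, *his3Δ::hisG*, *leu2Δ::hisG* and *trp1Δ::hisG*. It was measured with 2μ-*MSS11*, with *MSS11* deleted and the empty plasmid (*mss11*), and with the empty plasmid alone (wild type). A further 6 arrays of Σ1278b were titled *FLO8* overexpressed, *flo8* deleted, and wild type b with the empty plasmid. On the first 2 of these conditions the plasmid labels contradict the titles, since the arrays titled *FLO8* overexpressed list the empty plasmid and those titled *flo8* deleted list YEpLac195-*FLO8*. All transformants carry a multicopy plasmid, so no strain without one was measured.

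Several measurements bear on the labels. *MSS11* was at 13.27 and 12.37 in S288c with 2μ-*MSS11*, against 8.87 on both S288c wild type arrays, and at 13.50 and 13.58 in Σ1278b with 2μ-*MSS11*, 3.01 and 3.03 in *mss11*, and 7.50 and 8.34 in the wild type. *FLO8* was at 15.71 and 12.90 on the arrays titled *FLO8* overexpressed, at 11.06 and 11.16 on those titled *flo8* deleted, and at 11.59 and 11.63 in wild type b. The arrays titled *flo8* deleted thus go against their title, and they are named here by title only; whether the probes lie in the deleted part is not given in the sources used here. Of the auxotrophic markers, *LEU2* and *HIS3* were high on arrays whose labels give them as deleted. *LEU2* was at 13.31 or above on the Σ1278b arrays of both wild types, with 2μ-*MSS11* and titled *FLO8* overexpressed, and *HIS3* at 13.54 or above on all S288c arrays. Whether their probes lie in the deleted parts is likewise not given, so these levels do not settle the genotypes. *LEU2* was also high in *mss11* and on the arrays titled *flo8* deleted, for whose strains the study's strain list gives *LEU2* as the marker of the deletion. The **a**-specific genes, which MATα cells keep off, were high on S288c arrays labelled MATα: 7 of 7 such genes were measured, and their summed intensity was 13253 and 330.0 in S288c with 2μ-*MSS11*, against 31333 and 33445 in the S288c wild type. In Σ1278b the same sum lay between 119 and 261. The 4 α-specific genes summed to 59096 and 77126 in S288c with 2μ-*MSS11*, against 111651 and 113547 in its wild type. The 2 arrays of S288c with 2μ-*MSS11* also stood apart from each other: they differed by more than 1 on the log2 scale at 29.3% of the probe sets, whereas this share was between 0.0728% and 3.22% in the other 7 conditions.

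All 7 genes were above background on all 16 arrays. Their lowest value was 3.72, for *CRC1* on replicate 2 of S288c with 2μ-*MSS11*, whereas the 95th percentile of probe sets named for another organism was between 2.07 and 2.18. *CRC1* spanned 5.80 on the log2 scale over the 16 arrays and *YAT2* spanned 5.49, while *CAT2* spanned 2.07 and *ACH1* 2.75. The plot of all arrays shows that the widest gap between replicates was that of *CRC1* in S288c with 2μ-*MSS11*.

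**Figure D1:**
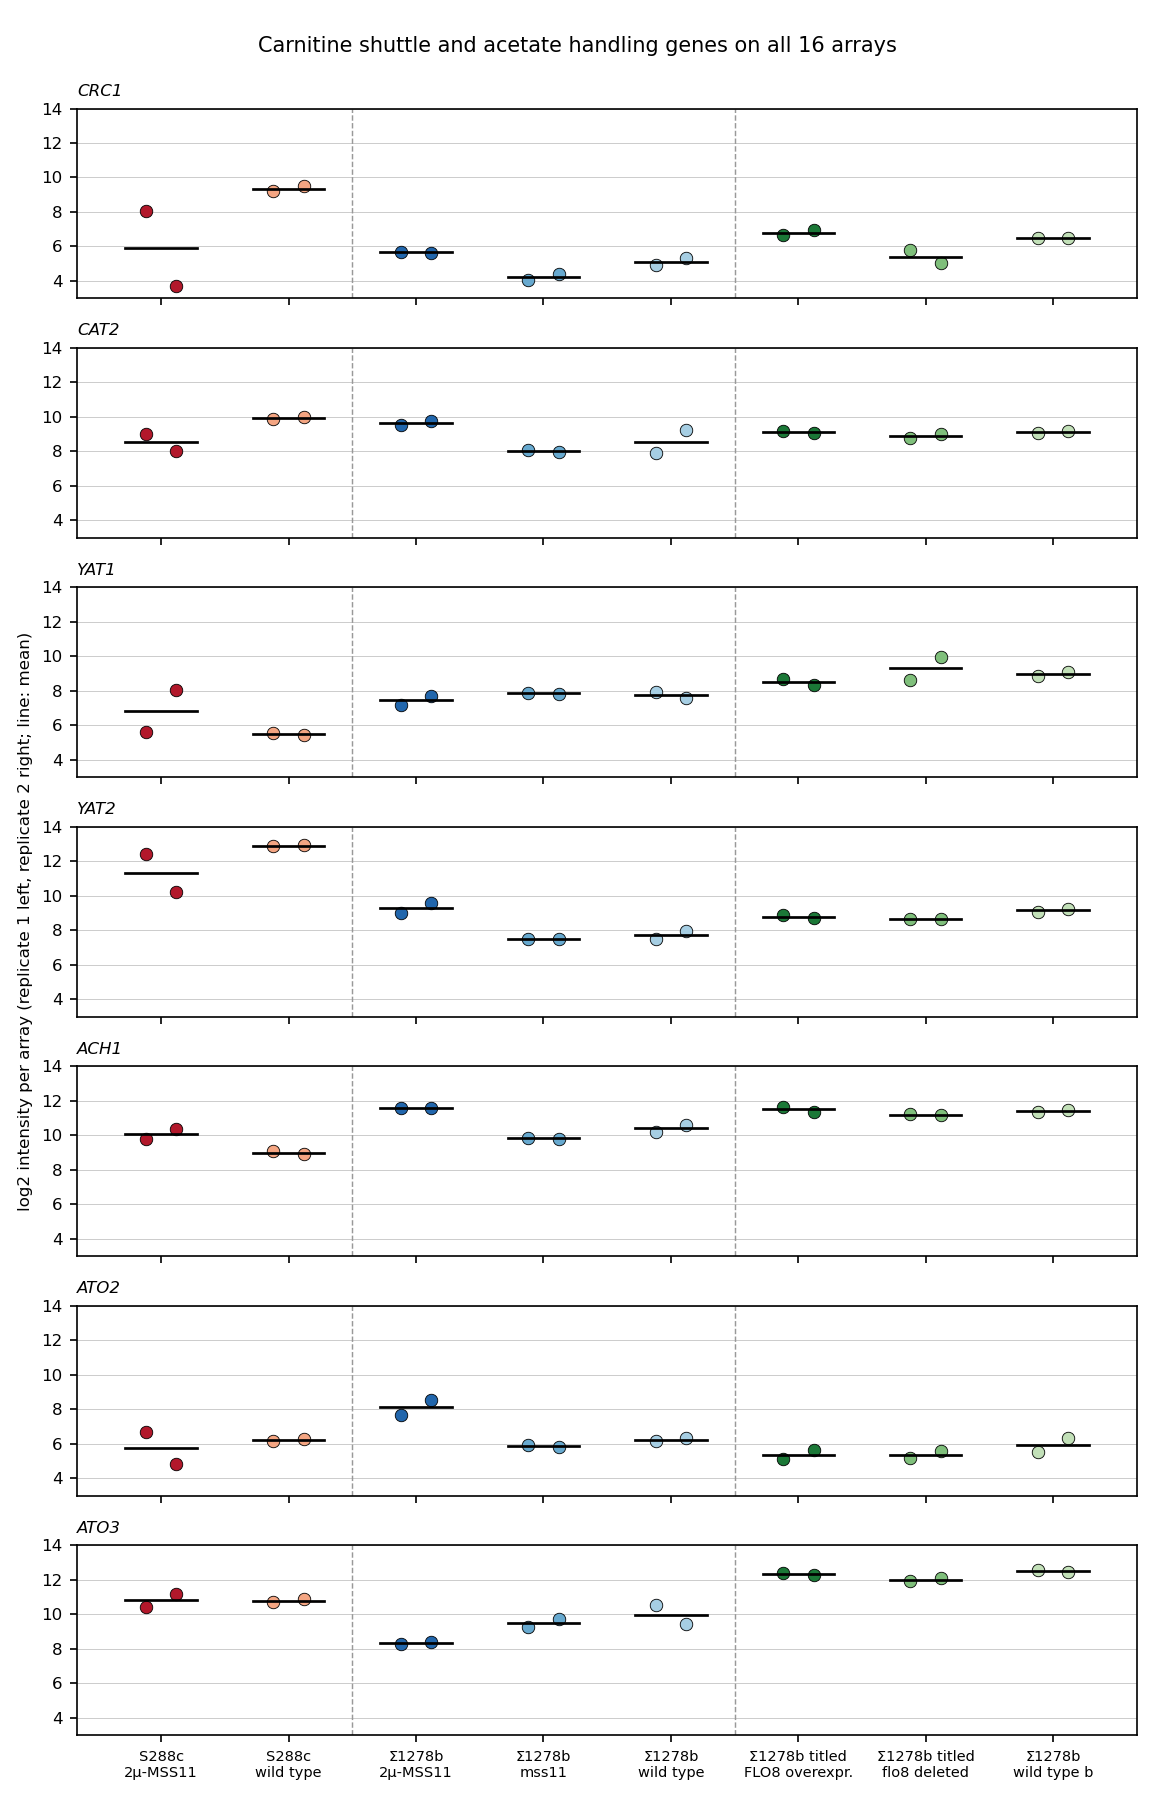
Log2 intensity of the 7 genes (vertical axis) on each of the 16 arrays, with replicate 1 on the left and replicate 2 on the right of each condition, the line at their mean, and dashed lines between the 3 sets of arrays. *CRC1* and *YAT2* were highest in the S288c wild type, *ATO2* was highest in Σ1278b with 2μ-*MSS11*, and the replicates of S288c with 2μ-*MSS11* lie far apart for *CRC1*, at 8.07 and 3.72.

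The first comparison asked how the multicopy plasmid with *MSS11* altered these genes in S288c. *CRC1* and *CAT2* fell and *ACH1* rose. With limma and an adjusted p under 0.05 over all probe sets tested, 3 of the 7 genes passed, against 16.9% of all probe sets tested. The direction was mixed, 1 higher and 2 lower, against 7.26% higher and 9.6% lower among all probe sets. Plasmid and wild type arrays did not overlap for 2 genes that were higher and 3 that were lower. Among all probe sets these shares were 21.8% and 25.7%.

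*CRC1* encodes the carrier of the inner mitochondrial membrane that exchanges acetylcarnitine for carnitine. It was at 8.07 and 3.72 in S288c with 2μ-*MSS11*, against 9.19 and 9.53 in the wild type. Both plasmid arrays were below both wild type arrays, but the second was lower than the first by far more than the wild type arrays differed. The log2 difference was -3.46 ± 1.03 (SE, n = 2 arrays each), 11.0-fold lower on the mean of the logs, with an adjusted p = 0.0475 (limma). As cultures were measured whole, fewer cells with the transcript and less of it per cell cannot be told apart, here and for the other genes. The difference was -1.29 without plasmid replicate 2 and -5.63 without plasmid replicate 1, and it did not pass without wild type replicate 1 (adjusted p = 0.140, limma) or without wild type replicate 2 (adjusted p = 0.193, limma).

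The acetyltransferases did not move together. *CAT2*, which encodes the carnitine acetyltransferase of peroxisomes and mitochondria, was at 9.03 and 8.05 with 2μ-*MSS11*, against 9.91 and 9.98 in the wild type. It fell by 1.40 on the log2 scale (SE 0.39, adjusted p = 0.0397, limma), and the groups did not overlap. Without plasmid replicate 2 the difference was -0.92 with an adjusted p of 0.117 (limma), and it also did not pass without wild type replicate 1 (0.131) or 2 (0.169). *YAT2*, the carnitine acetyltransferase of the cytosol, was at 12.43 and 10.24 with 2μ-*MSS11*, against 12.87 and 12.96 in the wild type. Its arrays were also apart and lower, with a difference of -1.58 ± 0.54 (SE), and the adjusted p was 0.0701 (limma). *YAT1*, the carnitine acetyltransferase of the outer mitochondrial membrane, was at 5.61 and 8.08 with 2μ-*MSS11*, against 5.56 and 5.43 in the wild type. Its first plasmid array lay beside the wild type arrays and its second above them, with a difference of 1.35 ± 0.67 (SE) and an adjusted p of 0.169 (limma).

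*ACH1* encodes a mitochondrial CoA transferase that moves coenzyme A between succinate and acetate, and bears the older name acetyl-CoA hydrolase. It was at 9.80 and 10.38 in S288c with 2μ-*MSS11*, against 9.10 and 8.90 in the wild type. All plasmid values were above all wild type values, and the difference of 1.09 ± 0.19 (SE), 2.13-fold, had an adjusted p = 0.00611 (limma). It was 0.80 and still passed without plasmid replicate 2, and without wild type replicate 2 the adjusted p was 0.0514 (limma). *ATO2* and *ATO3* belong to a family of membrane proteins of acetate and ammonium transport in yeast. *ATO2* was at 6.70 and 4.83 with 2μ-*MSS11*, against 6.15 and 6.27 in the wild type, and *ATO3* at 10.41 and 11.21, against 10.70 and 10.90. For both genes the plasmid arrays lay on either side of the wild type arrays, and their differences were -0.45 (95% interval -1.65 to 0.76) and 0.0064 (-0.75 to 0.77).

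These calls rest on a spread shared by all conditions, and the spread of S288c with 2μ-*MSS11* was larger than that of the others. When each condition was weighted by its own spread, 0 of the 7 genes passed in S288c (limma, with 22 of all probe sets passing), and in the unweighted fit 4 of 7 had an unadjusted p under 0.05, against 37.2% of all probe sets. Without plasmid replicate 1, 6 of the 7 genes passed, all but *ATO3*, against 68.8% of all probe sets. The 2 plasmid arrays differed by more than 1 on the log2 scale at 29.3% of all probe sets. The replicate with the lower **a**-specific genes was also the one on which each of the 7 genes had its extreme among the 4 S288c arrays. *CRC1*, *CAT2*, *YAT2* and *ATO2* were lowest there, and *YAT1*, *ACH1* and *ATO3* were highest, as the plot of the S288c arrays shows. The part of the mating-type markers in these values was not tested. Nor was the share of all probe sets with their extreme on that replicate counted. The pattern is therefore not shown to be particular to the 7 genes.

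**Figure D2:**
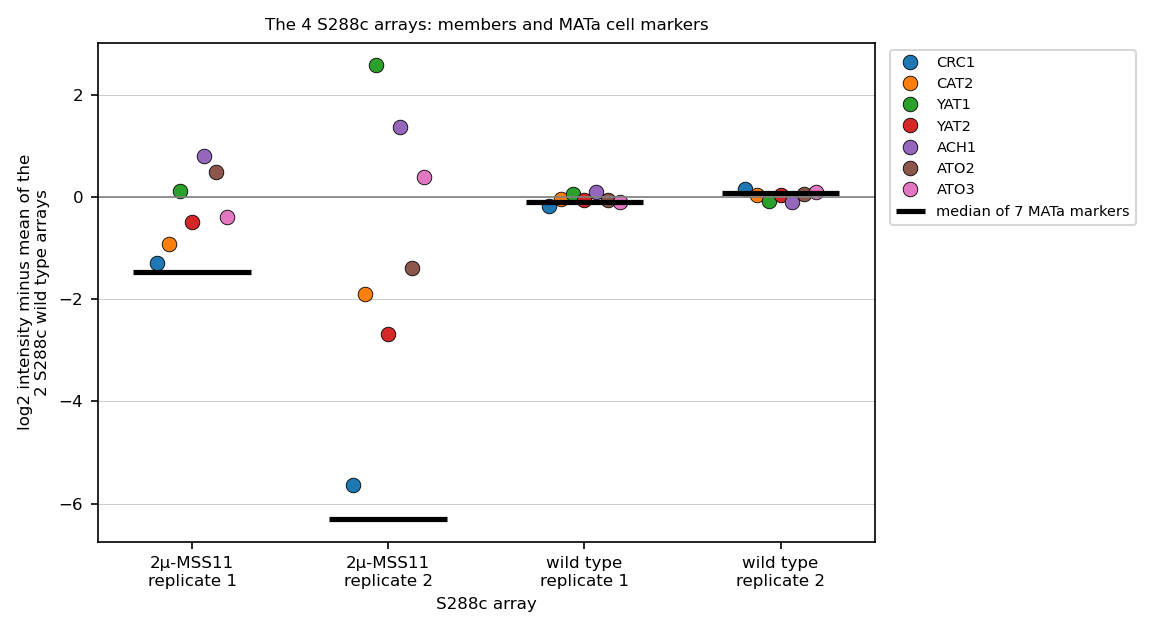
Log2 intensity of the 7 genes (coloured points) and the median of 7 MATa cell markers (black bars) on the 4 S288c arrays, each minus the mean of the 2 S288c wild type arrays. *CRC1*, *YAT1*, *YAT2* and the marker median are far from the wild type on replicate 2 of 2μ-*MSS11*. There *CRC1* was at 3.72, *YAT1* at 8.08 and *YAT2* at 10.24. *CRC1*, *CAT2* and *YAT2* are below the wild type on both plasmid arrays.

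In Σ1278b with the same plasmid, *ACH1* rose and *ATO3* fell. These 2 of the 7 genes passed the test, against 5.22% of all probe sets, 1.05% higher and 4.17% lower. Arrays did not overlap for 5 genes that were higher and 1 that was lower, against 24.4% and 37.2% of all probe sets. *ACH1* was at 11.57 on both arrays with 2μ-*MSS11*, against 10.20 and 10.60 in the wild type. The plasmid arrays were alike to the second decimal and lay above both wild type arrays. The difference was 1.17 ± 0.19 (SE, n = 2 arrays each), 2.25-fold, with an adjusted p = 0.0112 (limma). It did not pass without plasmid replicate 2 (1.17, adjusted p = 0.0972, limma) or without wild type replicate 1 (0.97, adjusted p = 0.0819, limma).

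Of the *ATO* genes, *ATO3* fell and *ATO2* did not pass. *ATO3* was at 8.27 and 8.41 in Σ1278b with 2μ-*MSS11*, against 10.52 and 9.45 in the wild type. It fell by 1.64 on the log2 scale (SE 0.34, 3.13-fold, adjusted p = 0.0259, limma), although the wild type arrays differed from each other by more than 1. It did not pass without plasmid replicate 1 (adjusted p = 0.108, limma), plasmid replicate 2 (0.161) or wild type replicate 1, where the difference was -1.11 (0.143). *ATO2* was at 7.69 and 8.55 with 2μ-*MSS11*, against 6.14 and 6.32 in the wild type. These were its highest values on any of the 16 arrays, and the groups did not overlap, but the difference of 1.89 ± 0.54 (SE) had an adjusted p of 0.0756 (limma). The study's own list of significantly regulated genes for this comparison has *ATO2* as higher, and holds neither *ACH1* nor *ATO3*. By the methods, that list rests on more replicates than the arrays described here.

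Among the shuttle genes of Σ1278b, none passed. *CAT2* was at 9.52 and 9.76 with 2μ-*MSS11*, against 7.91 and 9.24 in the wild type, a difference of 1.07 (95% interval 0.18 to 1.95, adjusted p = 0.153, limma). *YAT2* was at 8.99 and 9.58, against 7.50 and 7.95, a difference of 1.56 (95% interval 0.35 to 2.76, adjusted p = 0.129, limma). *YAT2* passed under 1 of 13 alternatives (adjusted p = 0.0203, limma), and under none that left out 1 array. For both genes the plasmid arrays were above the wild type arrays, and the *CAT2* wild type arrays were far apart; without wild type replicate 2, *CAT2* passed (adjusted p = 0.0143, limma). *CRC1* was at 5.70 and 5.62 with 2μ-*MSS11*, against 4.90 and 5.35 in the wild type, and *YAT1* at 7.19 and 7.71, against 7.91 and 7.61. Their differences of 0.53 and -0.31 were smaller than their standard errors of 1.03 and 0.67. These standard errors rest on a spread shared by all conditions. It takes in the S288c arrays with 2μ-*MSS11*, which differed by 4.35 for *CRC1* and 2.47 for *YAT1*. In Σ1278b both *CRC1* plasmid arrays lay above both wild type arrays, as was so for 24.4% of all probe sets.

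Deletion of *MSS11* was compared with the same wild type arrays. None of the 7 genes passed in *mss11* (limma), against 0.127% of all probe sets, and 1 gene, *ACH1*, had an unadjusted p under 0.05, against 2.76% of all probe sets. *ACH1* was at 9.87 and 9.79 in *mss11*, against 10.20 and 10.60 in the wild type, with a difference of -0.57 ± 0.19 (SE). *CRC1* was at 4.04 and 4.42, against 4.90 and 5.35, and *ATO2* at 5.95 and 5.84, against 6.14 and 6.32. For these 3 genes the *mss11* arrays lay below both wild type arrays, against 24.5% of all probe sets, and the other 4 genes overlapped. Differences over the 7 genes lay between -0.90 and 0.10.

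The strain with 2μ-*MSS11* was also set directly against *mss11*, which spans the widest range of *MSS11*. *CAT2*, *ACH1* and *ATO2* were higher with 2μ-*MSS11*, 3 of the 7 genes, against 12.4% of all probe sets changed, 4.62% higher and 7.82% lower. *ACH1*, at 11.57 on both 2μ-*MSS11* arrays, against 9.87 and 9.79 in *mss11*, differed by 1.74 ± 0.19 (SE), 3.34-fold (adjusted p = 0.00133, limma). It passed under all 13 alternatives, among them each array left out, with an adjusted p of 0.0236 at most. *ATO2*, at 7.69 and 8.55 with 2μ-*MSS11*, against 5.95 and 5.84 in *mss11*, differed by 2.23 ± 0.54 (SE), 4.68-fold (adjusted p = 0.0275, limma). *CAT2*, at 9.52 and 9.76, against 8.11 and 7.97, differed by 1.60 ± 0.39 (SE), 3.03-fold (adjusted p = 0.0295, limma). Neither *ATO2* nor *CAT2* passed when any 1 of the 4 arrays was left out: for *ATO2* the adjusted p was then between 0.0535 and 0.203, and for *CAT2* between 0.0889 and 0.178 (limma).

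The other 4 genes did not pass in this comparison. *YAT2* was at 8.99 and 9.58 with 2μ-*MSS11*, against 7.52 and 7.48 in *mss11*, a difference of 1.79 with an adjusted p of 0.0584 (limma). *ATO3* was at 8.27 and 8.41, against 9.27 and 9.74, a difference of -1.16 with an adjusted p of 0.0533 (limma). *CRC1* was higher by 1.43 and *YAT1* lower by 0.41, both without passing. All 7 genes had arrays that did not overlap here, 5 higher and 2 lower, against 79.5% of all probe sets. With each condition weighted by its own spread, 6 of the 7 passed, all but *YAT1* (limma), and 2743 of all probe sets did. The comparisons of Σ1278b with 2μ-*MSS11*, *mss11* and wild type share arrays, so their values are given side by side and not as separate evidence.

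**Figure D3:**
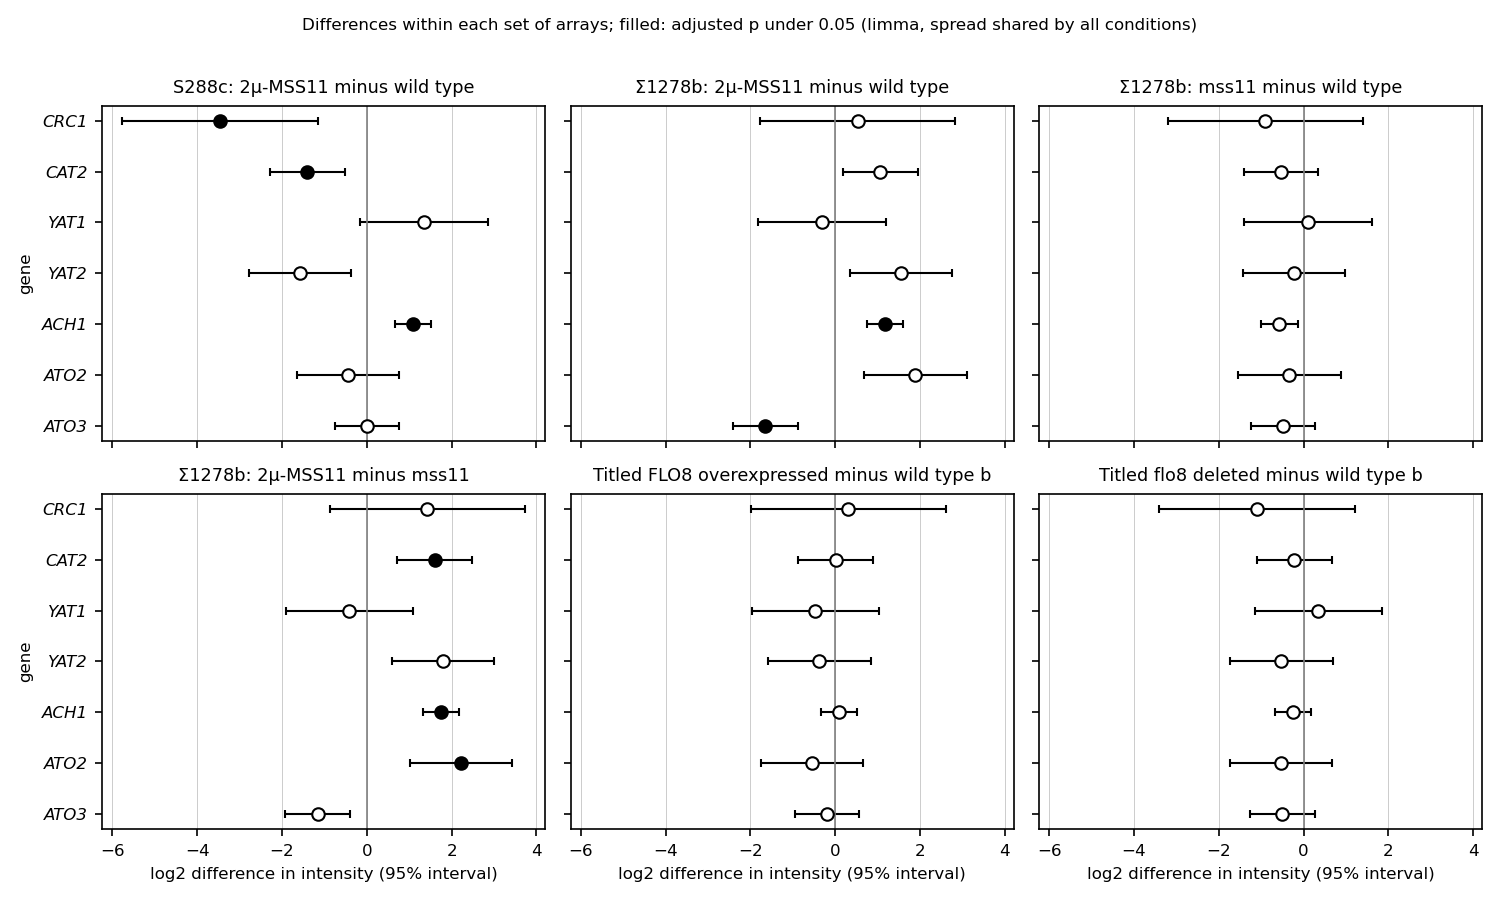
Log2 difference in intensity with its 95% interval (horizontal axis) for each gene in 6 comparisons, filled where the adjusted p was under 0.05 (limma). *ACH1* is filled and to the right of 0 for 2μ-*MSS11* against the wild type in both strains, at 1.09 and 1.17, while *CAT2* and *YAT2* lie to the left in S288c and to the right in Σ1278b, and no gene is filled in the comparisons with wild type b.

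The strains' responses to 2μ-*MSS11* were then compared with each other, as the response of S288c minus that of Σ1278b. *CAT2*, *YAT2* and *ATO3* responded differently, 3 of the 7 genes, against 15.9% of all probe sets, 10.3% with a higher response in S288c and 5.64% with a lower one. *CAT2* was lower with the plasmid in S288c (-1.40) and higher in Σ1278b (1.07), a difference of responses of -2.47 ± 0.56 (SE, adjusted p = 0.0202, limma). *YAT2* was likewise lower in S288c (-1.58) and higher in Σ1278b (1.56), and its responses differed by -3.14 ± 0.76 (SE, adjusted p = 0.0254, limma). *ATO3* differed by 1.65 ± 0.48 (SE, adjusted p = 0.0458, limma), with a response of 0.0064 in S288c and -1.64 in Σ1278b. *ATO2* (-2.34, adjusted p = 0.0633, limma) and *CRC1* (-3.99, adjusted p = 0.0875, limma) did not pass. *ACH1* differed by -0.08 (95% interval -0.68 to 0.52), having risen in both strains. The control arrays of the 2 strains are separate.

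None of these 3 differences passed under each array left out. *CAT2* did not pass without S288c wild type replicate 1 (adjusted p = 0.0562, limma) or 2 (0.0662) or without Σ1278b plasmid replicate 2 (0.0803). *YAT2* did not pass without these arrays (0.0663, 0.0786 and 0.102) or without Σ1278b wild type replicate 1 (0.0830), and its difference was -2.05 without S288c plasmid replicate 2. With 1 array left out, *ATO3* passed only without S288c plasmid replicate 1 or Σ1278b wild type replicate 2, and its adjusted p was between 0.0625 and 0.120 without any of the other 6 (limma). With each condition weighted by its own spread, 0 of the 7 passed (limma, with 7 of all probe sets passing).

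In the set with wild type b, no gene of the 7 passed. On the arrays titled *FLO8* overexpressed, 0 of 7 passed (limma), against 0.0546% of all probe sets, and 0 had an unadjusted p under 0.05, against 1.46%. The differences from wild type b lay between -0.54 and 0.31. On the arrays titled *flo8* deleted, 0 of 7 passed, against 0.4% of all probe sets, and 0 had an unadjusted p under 0.05, against 5.24%. Here 5 of the 7 genes were below wild type b without overlap, against 33.5% of all probe sets. *CRC1* was at 5.77 and 5.02 on the arrays titled *flo8* deleted, against 6.46 and 6.52 in wild type b, a difference of -1.10 (95% interval -3.40 to 1.21). *YAT2* was at 8.65 and 8.66, against 9.08 and 9.27, and *ATO3* at 11.91 and 12.12, against 12.59 and 12.45. With each condition weighted by its own spread, *CRC1*, *YAT2* and *ATO3* passed (adjusted p = 0.00864, 0.0244 and 0.0456, limma), and 870 of all probe sets did.

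Between the arrays titled *FLO8* overexpressed and those titled *flo8* deleted, 0 of 7 passed (limma), against 0.8% of all probe sets. *CRC1* was at 6.66 and 6.95 on the arrays titled *FLO8* overexpressed, against 5.77 and 5.02 on those titled *flo8* deleted, and *ACH1* at 11.65 and 11.38, against 11.21 and 11.15. Of the 7 genes, 5 were higher without overlap, these 2 among them, against 33.8% of all probe sets. The 2 passed with each condition weighted by its own spread (adjusted p = 0.00265 and 0.0362, limma). These comparisons share arrays with each other.

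*YAT1* was the only one of the 7 with a higher mean on the arrays titled *flo8* deleted than in wild type b. It was at 8.65 and 9.98 on the arrays titled *flo8* deleted, against 8.85 and 9.08 in wild type b, so that replicate 1 was below both wild type b arrays and replicate 2 was above them. Without replicate 2 the difference from wild type b was -0.32, against 0.35 with it. *YAT1* is the gene among the 7 whose systematic name places it on chromosome I. On the same array, the 91 probe sets of chromosome I had a median 0.96 above wild type b on the log2 scale, and 75.8% of them were more than 0.5 above it. This was looked at after the values of *YAT1* had been seen. The medians of the other chromosomes on that array lay between -0.03 and 0.0045, as the plot by chromosome shows. On replicate 1 the chromosome I median was 0.0074. Over all 16 arrays, the other 255 medians of a chromosome against its wild type arrays lay between -0.13 and 0.13. The part of this shift in the *YAT1* value was not tested. On replicate 2 of S288c with 2μ-*MSS11*, where *YAT1* was also high, the chromosome I median was -0.0015 relative to the S288c wild type.

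**Figure D4:**
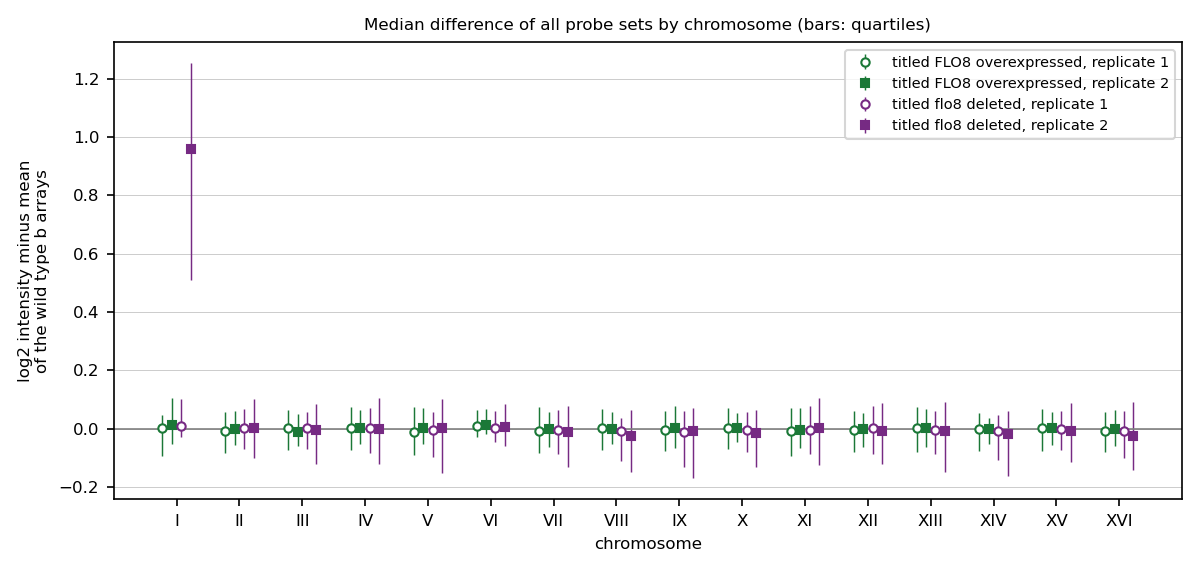
Median log2 difference from the mean of the wild type b arrays (vertical axis, bars at the quartiles) for the probe sets of each chromosome (horizontal axis) on 4 arrays, 2 titled *FLO8* overexpressed and 2 titled *flo8* deleted. The median of chromosome I, which holds *YAT1*, is at 0.96 on replicate 2 of the arrays titled *flo8* deleted, while the other medians drawn lie near 0.

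Levels between the strains could be described but not tested, since the lowest intensities differ between 3 sets of arrays and the sets may have been normalized apart. The S288c wild type exceeded the Σ1278b wild type by 5.19 on the log2 scale for *YAT2*, 4.23 for *CRC1*, 1.37 for *CAT2* and 0.81 for *ATO3*. It was lower by 2.27 for *YAT1* and by 1.40 for *ACH1*, and *ATO2* differed by -0.02. Over all probe sets the median of this difference was 0.02, and *YAT2* and *CRC1* lay at its percentiles 99.0 and 98.5, with *YAT1* at 3.33. For all genes but *ATO2*, the arrays of the 2 wild types did not overlap. Quantile normalization and median centring gave the same directions for all 7, with *ATO2* at -0.84 and *YAT1* at -3.63 after quantile normalization. Against wild type b, *ATO3* had the other direction, with the S288c wild type minus wild type b at -1.72, where the median of all probe sets was -1.14. *ATO2* turned as well, to 0.30, with arrays that overlapped, and was at -0.29 after quantile normalization.

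Between the 2 wild types of Σ1278b, labelled alike but in different sets, the shift of all probe sets was large, with wild type b above wild type by a median of 1.21. *ATO3* was 2.53 higher in wild type b, at percentile 99.2 of all probe sets, and *ATO2* was 0.32 lower, at percentile 4.55. *CRC1* (1.36), *YAT1* (1.20), *YAT2* (1.45) and *ACH1* (1.04) lay close to the median shift. *CRC1* was at 0.05 after median centring but at 1.22 after quantile normalization, and the directions of *CAT2*, *YAT1* and *ACH1* turned with another normalization.

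Within a gene, the order of the 8 conditions on the deposited scale differed from gene to gene. As wild type b lay a median of 1.21 above the Σ1278b wild type on that scale, the places of wild type b and of the *FLO8* and *flo8* arrays among the other conditions are not settled, nor are overlaps between sets of arrays. *YAT2* was highest in the S288c wild type (12.92 on average), then S288c with 2μ-*MSS11* (11.34), then Σ1278b with 2μ-*MSS11* (9.29), which overlapped with wild type b (9.17), and lowest in *mss11* (7.50), where it overlapped with the Σ1278b wild type at 7.73. *CRC1* was also highest in the S288c wild type (9.36) and lowest in *mss11* (4.23), with the arrays titled *FLO8* overexpressed (6.80) apart from both neighbours. From wild type b at 6.49 down to the Σ1278b wild type at 5.13 each condition overlapped with the next, and the Σ1278b wild type was apart from *mss11*. *CAT2* was highest in the S288c wild type (9.94), apart from Σ1278b with 2μ-*MSS11* (9.64), and lowest in *mss11* (8.04), which overlapped with S288c carrying the plasmid (8.54). *YAT1* ran the other way, with its lowest level in the S288c wild type (5.49) and its highest on the arrays titled *flo8* deleted (9.31), which overlapped with wild type b (8.97). *ACH1* was highest in Σ1278b with 2μ-*MSS11* (11.57), which overlapped with the arrays titled *FLO8* overexpressed (11.52), and lowest in the S288c wild type (9.10 and 8.90). *ATO2* stood out in Σ1278b with 2μ-*MSS11* (8.12), and the remaining conditions, between 6.23 and 5.36, each overlapped with the next. *ATO3* was highest in wild type b (12.52) and lowest in Σ1278b with 2μ-*MSS11* (8.34).

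The genes that work beside the shuttle were described as lists, to be read in S288c against 7.26% of all probe sets higher and 9.6% lower, and in Σ1278b with 2μ-*MSS11* against 1.05% higher and 4.17% lower. Of 19 genes for carnitine uptake and for making and using acetyl-CoA, 0 rose and 2 fell in S288c with 2μ-*MSS11*: *CIT3*, a mitochondrial citrate and methylcitrate synthase (-2.54), and *ACS2*, the acetyl-CoA synthetase used on glucose (-0.49). The list had a median of -0.15, against -0.0074 for all probe sets. In Σ1278b, 0 of the 19 passed with 2μ-*MSS11*, with a median of 0.09, against -0.03 for all probe sets. Against *mss11*, 2 of the 19 rose with 2μ-*MSS11*, *ALD2*, an aldehyde dehydrogenase (0.85), and *PDA1*, a subunit of pyruvate dehydrogenase (0.32). Of all probe sets, 4.62% were higher in that comparison. *AGP2* and *HNM1*, through which yeast takes up carnitine, and *ADY2* (also known as *ATO1*), the third member of the *ATO* family, are named for their roles. *AGP2* was at 6.25 and 5.06 in Σ1278b with 2μ-*MSS11*, against 7.30 and 8.40 in its wild type, a difference of -2.20 that did not pass (adjusted p = 0.159, limma). *HNM1* lay between 12.78 and 14.50 on all arrays and did not pass in any comparison. *ADY2* lay between 2.07 and 2.55 on all arrays, close to the background.

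Genes of the glyoxylate cycle and gluconeogenesis gave calls in opposite directions in the 2 strains. Of 10 genes, 0 rose and 2 fell in S288c with 2μ-*MSS11*, *DIC1*, the mitochondrial dicarboxylate carrier (-2.08), and *MLS1*, malate synthase (-1.49). In Σ1278b with 2μ-*MSS11*, 2 rose and 0 fell, *MLS1* (2.95) and *FBP1*, fructose-1,6-bisphosphatase (1.96). Of these genes only *MLS1* passed in both strains. *FBP1* was dim, at 4.39 and 4.88 with the plasmid in Σ1278b, against 2.82 and 2.54 in the wild type. The 95th percentile of probe sets named for another organism was 2.15 and 2.16 on these wild type arrays. *MLS1* was at 8.23 and 8.64 in Σ1278b with 2μ-*MSS11*, against 4.85 and 6.12 in its wild type. In S288c it was at 5.16 and 4.46 with 2μ-*MSS11*, against 6.22 and 6.38 in the wild type. The plasmid arrays were thus apart from the wild type in both strains, in opposite directions, and the responses of *MLS1* differed by -4.44 (adjusted p = 0.00267, limma). *ICL1*, isocitrate lyase, also responded differently (-3.72), as did *FBP1* (-2.06), and 4 of the 10 genes did so in all. Each of these had a lower response in S288c, against 5.64% of all probe sets. Against *mss11*, 4 of the 10 rose in Σ1278b with 2μ-*MSS11*, where 4.62% of all probe sets were higher. The log2 differences from *mss11* were 4.30 for *MLS1*, 2.28 for *ICL1* and 2.08 for *FBP1*. The medians over the list were -0.19 in S288c and 0.47 in Σ1278b, against -0.0074 and -0.03 for all probe sets.

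**Figure D5:**
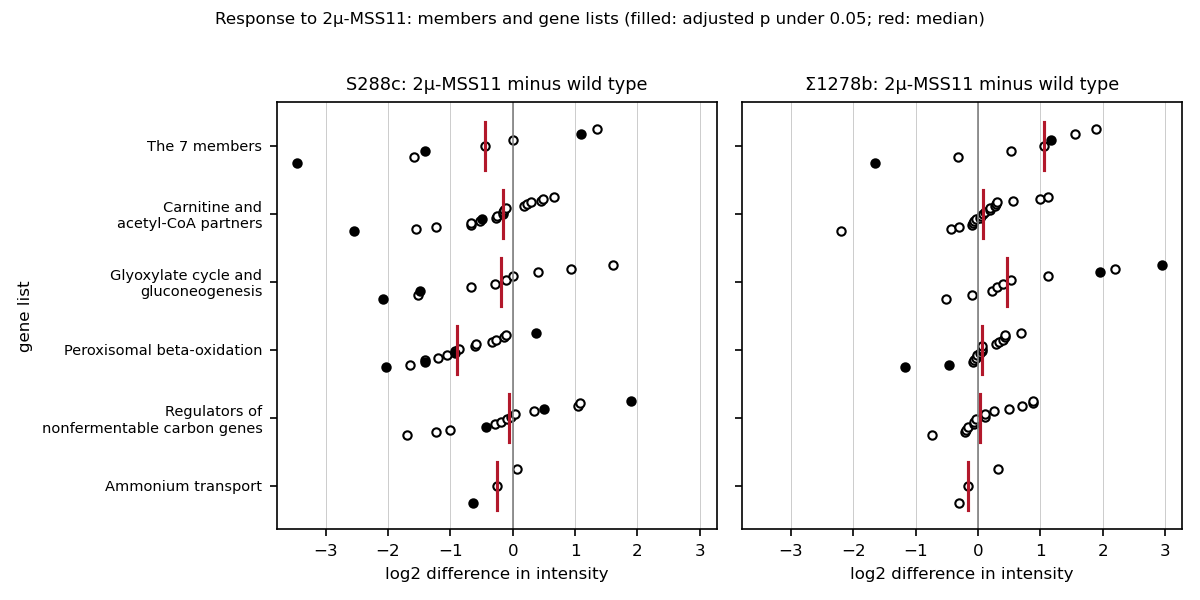
Log2 difference of 2μ-*MSS11* from the wild type (horizontal axis) for each of the 7 genes and each gene of 5 lists, S288c on the left and Σ1278b on the right, filled where the adjusted p was under 0.05 (limma), with the median of each list in red. Glyoxylate cycle and gluconeogenesis genes that passed lie to the left of 0 in S288c and to the right in Σ1278b, and in S288c the median of the beta-oxidation genes was -0.89.

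Peroxisomal beta-oxidation, from which acetyl-CoA leaves by way of *CAT2*, had a median response to 2μ-*MSS11* of -0.89 in S288c and of 0.06 in Σ1278b. Of its 16 genes, 1 rose and 3 fell in S288c. Those that fell were *DCI1* (-2.03), *CTA1*, peroxisomal catalase (-1.41), and *ANT1*, the peroxisomal ATP carrier (-0.92). *DCI1* was at 7.97 and 5.58 with 2μ-*MSS11*, against 8.77 and 8.84 in the wild type, with the same far replicate as *CRC1*. In Σ1278b, 0 rose and 2 fell, *PEX11*, a peroxisomal membrane protein of peroxisome division (-1.17), and *FAA4*, an acyl-CoA synthetase (-0.46). *FAA4* was the gene that rose in S288c, and its responses differed by 0.84 (adjusted p = 0.0104, limma). Of 14 regulators of genes for nonfermentable carbon, 2 rose and 1 fell in S288c with 2μ-*MSS11*. *HAP4*, the activator of respiratory genes, was at 11.32 and 11.51, against 9.32 and 9.73, a rise of 1.89, with both plasmid arrays well above the wild type. *REG1* rose by 0.51 and *RTG2* fell by 0.42. In Σ1278b none of the 14 passed against the wild type (limma), and *HAP4* rose by 0.88 against *mss11*. Of the 3 ammonium permeases, *MEP2* fell by 0.64 in S288c and 0 passed in Σ1278b. With each condition weighted by its own spread, 0 of the 62 genes of these lists passed in S288c and 0 in the difference of responses (limma). Without S288c plasmid replicate 1, 1 beta-oxidation gene was higher and 13 were lower, where 1907 of all probe sets were higher and 1873 lower. Without either S288c wild type array, 0 of the beta-oxidation genes and 0 of the 19 passed, and of the glyoxylate and gluconeogenesis genes 0 were higher and 1 was lower.

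In the remaining comparisons the lists gave few calls. In *mss11*, 0 of the 62 genes passed against the wild type (limma). On the arrays titled *flo8* deleted, 1 gene passed, *DIC1*, which was at 11.82 and 11.52, against 13.83 and 13.75 in wild type b. Its groups were far apart, with a difference of -2.12 (adjusted p = 0.0307, limma). It was also 1.94 higher on the arrays titled *FLO8* overexpressed than on those titled *flo8* deleted. Neither *DIC1* call was kept with any 1 of the 4 arrays left out, or with the replicate number as a block (adjusted p = 0.0817 and 0.0546, limma). The glyoxylate and gluconeogenesis count in Σ1278b with 2μ-*MSS11* was 1 without wild type replicate 1 and 2 without each of the other arrays, and against *mss11* it was 2 or 3 with 1 array left out.

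The 7 genes were also set against each other over the 16 arrays, after each set of arrays was centred. *CAT2* and *YAT2* had a Pearson r of 0.91, *YAT2* and *ATO2* one of 0.88, and *CRC1* and *YAT1* one of -0.92, over 16 arrays that share cultures, sets and replicate 2 of S288c with 2μ-*MSS11*. Over the 12 Σ1278b arrays, *YAT2* and *ATO2* had an r of 0.95, *YAT2* and *ACH1* 0.94, *CAT2* and *ACH1* 0.92, while over the 16 arrays the pairs with *ACH1* had an r of 0.19 and 0.27. These are descriptions of few arrays. The genes most like each member over the 16 arrays were *EST3* for *CRC1* (r of 0.98), *LDH1* for *CAT2* (0.98), *FUN12* for *YAT1* (0.95), *RBK1* for *YAT2* (0.96), *ANB1* for *ACH1* (0.94), *EPO1* for *ATO2* (0.95) and *MCM7* for *ATO3* (0.91). Next in order came *ISN1* and *ATE1* for *CRC1*, *UGX2* and *RGA2* for *CAT2*, *SEN34* and *UME1* for *YAT1*, *SRL3* and *SNX41* for *YAT2*, *TIR2* and *EMC4* for *ACH1*, *AVT3* and *PRM10* for *ATO2*, and *BCS1* and *DUS4* for *ATO3*. With Spearman's rank correlation in place of Pearson's, at most 1 of the 3 genes named for a member was still among its 3 most alike. Without the S288c arrays, 2 of the 3 were for *ATO2*, 1 for *CAT2* and for *YAT1*, and 0 for *CRC1*, *YAT2*, *ACH1* and *ATO3*. *FUN12* and *SEN34*, like *YAT1*, have systematic names of chromosome I.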

How the data were processed

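The authors hybridized labelled cRNA to Affymetrix Yeast Genome 2.0 arrays, and deposited background-corrected, normalized values, a linear intensity for each probe set on each array. RMA is named in the methods and GCRMA in the submitters' processing notes. Whether the 3 sets of arrays, which differ in their lowest intensity, were normalized together is not given in the sources used here.

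The log2 of each intensity was taken, after a floor of 1 that 0 values reached. Of 10928 probe sets, 213 controls, 1746 named for another organism, 3470 with no gene name and 1 with several were left out, and 5498 were tested. Conditions came from titles and source names. A mean per condition was fitted over all 16 arrays with limma 3.58.1 in R 4.3.3 (8 residual and 1.50 prior degrees of freedom), with moderation and Benjamini-Hochberg adjustment over all 5498 probe sets and a threshold of 0.05. The fit was tested on simulated data. Differences between sets of arrays were described without a test. Alternatives left out dim probe sets, kept all probe sets but the controls (no organism filter), fitted each set alone, or left out each array. Others used quantile normalization or centring on medians, a trend, robust moderation, weights per condition or a replicate block.

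The 7 genes and the lists were chosen with earlier results of these data known. The genes named are the 7, *MSS11* and *FLO8*, marker genes of the labels, up to 3 genes per list and comparison with the largest change among those that passed, and for each of the 7 the 3 genes with the highest Pearson r among probe sets with a mean of at least 5. *AGP2*, *HNM1* and *ADY2* were added for their roles, after their values were seen. Depth has no meaning for arrays, and 2 arrays per condition limit the precision.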

Additional observations from a re-analysis of the deposited data

Results flagged for a closer look

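In 3 of the 7 genes the response to 2μ-*MSS11* differed between the strains by a test of the difference itself, the contrast of both responses in limma. Of all probe sets, 15.9% passed the same test. The response of S288c minus that of Σ1278b was -2.47 on the log2 scale for *CAT2*, -3.14 for *YAT2* and 1.65 for *ATO3*. All 3 calls were lost with some single arrays left out and with each condition weighted by its own spread. With 2 arrays per condition, no test for a far sample could be run within a condition.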

How the results depend on the processing

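Of the 7 genes, 3 passed for 2μ-*MSS11* against wild type in S288c, 2 in Σ1278b, 3 against *mss11* and 3 in the difference of responses. The shares of all probe sets that passed in these comparisons were 16.9%, 5.22%, 12.4% and 15.9%, in that order. Without the organism filter, 1 passed in each of these comparisons. That setting kept all probe sets but the controls, named or not, and adjusted over 10715. The shares of the 10715 probe sets that passed were then 5.76%, 1.92%, 4.27% and 5.52%, in the same order. Fitted within a set of arrays, 0 passed in S288c, 1 in Σ1278b and 0 in the difference of responses. Of all probe sets, 0, 222 and 55 passed in these fits. With weights per condition, 0 passed in S288c, 6 against *mss11* and 0 in the difference of responses. The shares of all probe sets were 0.4%, 49.9% and 0.127%. With the same weights, 3 passed on the arrays titled *flo8* deleted against wild type b, where 15.8% of all probe sets did. Between the arrays titled *FLO8* overexpressed and those titled *flo8* deleted, 2 passed, against 17.7% of all probe sets. With 1 array left out, between 0 and 6 passed in S288c, 0 and 3 in Σ1278b, 1 and 1 against *mss11*, and 0 and 6 in the difference of responses. Arrays that share a replicate number share only that number, with deviations that correlated between -0.41 and 0.09 in the sets with *MSS11* and between 0.15 and 0.26 in the set with wild type b. With the replicate block, 1 passed in S288c and 1 in Σ1278b, and the calls over all probe sets were 750 and 134, against 927 and 287 without it. In the set with wild type b they were 0, 12 and 33, against 3, 22 and 44, and both *DIC1* calls were lost. A crossed pairing of *mss11* and wild type, added after seeing the data, gave 7 calls, 0 of them among the 7 genes.

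Over all probe sets, the calls under the alternatives ranged between 0 and 3780 in S288c (927), 23 and 640 in Σ1278b (287), 3 and 17 in *mss11* (7), 36 and 2743 for 2μ-*MSS11* against *mss11* (684), 0 and 253 for the arrays titled *FLO8* overexpressed (3), 6 and 870 for those titled *flo8* deleted (22), 9 and 975 between these (44), and 7 and 3673 for the difference of responses (875). Wild type b minus wild type of Σ1278b turned direction for *CAT2* (-0.59 with quantile normalization, -0.76 with median centring), *YAT1* (-0.11 with centring) and *ACH1* (-0.27 and -0.28). The cause was not tested.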

Other observations

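Among the medians by chromosome, 1 array stood apart. Replicate 2 of the arrays titled *flo8* deleted had a chromosome I median 0.96 above wild type b over 91 probe sets, with quartiles of 0.51 and 1.25. Of the 62 genes in the lists, 12 passed in S288c with 2μ-*MSS11*, 3 higher and 9 lower, against 16.9% of all probe sets (7.26% higher, 9.6% lower), and 4 in Σ1278b, 2 higher and 2 lower, against 5.22% (limma).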
